A study of Homo sapiens with 4 samples.

Results

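The genes described here form the amino acid stress branch of the integrated stress response. They are eIF2 kinases, the transcription factor ATF4 with its bZIP partners, and ATF4 targets. The targets act in stress feedback, serine, one-carbon, asparagine and proline metabolism and amino acid transport. The 42 members were chosen by name from pathway knowledge and not by their values, but with earlier results of these data known. All 42 were found among the 40205 genes listed for each library. Human lung adenocarcinoma cells were transfected for 24 h with a scrambled control siRNA (NC, 2 libraries) or with siRNA against circZFR (si-circZFR, 2 libraries), and total RNA was sequenced on the Ion Proton. CircZFR is a circular RNA spliced from exons of ZFR. The comparison asked which mRNAs differed once the circle was silenced. No other genotype, agent or time enters it, and both groups share the transfection and the medium, RPMI with serum. The study's design text and methods name the cells A549, whereas the sample labels name H1299.

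In this pathway, the kinases GCN2, PERK and HRI phosphorylate the initiation factor eIF2 when amino acids run short, when unfolded proteins build up in the endoplasmic reticulum (ER) or when heme or mitochondria fail. General translation then slows while translation of ATF4 mRNA goes up, so the amount of ATF4 protein is set largely after transcription. ATF4 pairs with C/EBP proteins on composite DNA elements and switches on genes that import, make or recycle amino acids, among them the serine and mitochondrial one-carbon enzymes on which many lung adenocarcinomas rely.

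The values are RPKM, read numbers divided by gene length and library size, so levels can be compared between genes. Unless stated otherwise they were scaled between libraries by trimmed means and are called scaled RPKM. The libraries held 11040050 to 12816868 reads. ZFR, the host gene of the silenced circle, stood at 25.5 and 28.8 RPKM as deposited in the NC libraries and at 5.35 and 5.13 in the si-circZFR libraries. It passed the test by limma (log2FC -2.33, SE 0.17, FDR = 0.0388), but there is 1 value per gene, so the circle and linear ZFR cannot be told apart. The study reports by RT-PCR that its siRNA lowered circZFR in A549 and HCC827 cells and left ZFR without a detectable change. Here the whole-gene value was lower, and what it reflects was not tested. CDKN2A, which is deleted in A549 and expressed in H1299, was at 0 in the 4 libraries. The A549 markers NQO1, AKR1C1 and AKR1B10 were between 355 and 1747 RPKM as deposited, FGB was at 0.761 to 2.64 and SFTPB at no more than 0.0247, while VIM, high in H1299, was at 555 to 601. Of the immune and stromal markers, PTPRC and CD3E were at 0, PECAM1 was at no more than 0.0265 and COL1A1 at 0.553 to 2.09 RPKM. The value of CDKN2A thus goes against the H1299 label, and the high VIM does not. In such bulk RNA, fewer cells of a state and less RNA per cell cannot be told apart.

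The DNA element that ATF4 binds with a C/EBP partner, the C/EBP-ATF response element, has the core TGATG, any base, AA. This core was sought on both strands of the RefSeq promoter windows (GRCh38.p14, from 250 bases before to 50 bases after a gene's start), of which 34 of the 42 members had one. EIF2AK1, NUPR1, EIF4EBP1, PSPH, SHMT2, ALDH1L2, PYCR1 and GPT2 were not matched. The core was present in 10 of the 34 members (29.4%), against 1207 of 27271 other genes (4.43%), and in 3.62% of all 35116 windows. With C as the free base it was present in 6 members (17.6%) and in 1.06% of the other genes. The members were chosen as ATF4 targets, so the higher share describes that choice and is given with no test. The sites are shown with the core in capitals and 5′ to 3′ on the strand that carries it. The first 3 belong to transcription factors of the group, the next to the glutathione-degrading enzyme CHAC1 and to asparagine synthetase, whose element is the classic amino acid response site, and the others to a one-carbon enzyme and amino acid transporters.

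ATF3: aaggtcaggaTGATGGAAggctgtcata
CEBPG: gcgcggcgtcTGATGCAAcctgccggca
JDP2: tagccggggcTGATGCAAcccgtcccgc
CHAC1: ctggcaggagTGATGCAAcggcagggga
ASNS: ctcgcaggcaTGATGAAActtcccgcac
MTHFD1L: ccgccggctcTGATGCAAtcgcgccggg
SLC1A4: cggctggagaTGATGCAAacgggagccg
SLC1A5: aggaagtggcTGATGCAAgctgtccagg
SLC3A2: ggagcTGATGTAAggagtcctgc
SLC7A1: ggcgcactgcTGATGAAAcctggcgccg

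Distances are counted along the gene from its start to the core base that lies farthest upstream. The ATF3 site lies at chr1:212565206-212565233 on the plus strand, 191 bases upstream of the start, the CEBPG site at chr19:33374061-33374088 on the plus strand, 42 bases upstream, and the JDP2 site at chr14:75427996-75428023 on the plus strand, 16 bases upstream. For CHAC1 the site is at chr15:40953252-40953279, 209 bases upstream and on the minus strand, opposite to the gene, and for ASNS at chr7:97872459-97872486, 68 bases upstream on the minus strand, which is the strand of the gene. The MTHFD1L site is at chr6:150866347-150866374 on the plus strand, 129 bases upstream. Among the transporters, the SLC1A4 site is at chr2:64989382-64989409 (minus strand, opposite to the gene, 7 bases upstream) and the SLC1A5 site at chr19:46784894-46784921 (minus strand, 97 bases upstream). The SLC3A2 site at chr11:62881726-62881748 (minus strand, opposite to the gene) and the SLC7A1 site at chr13:29595664-29595691 (minus strand) lie 37 and 7 bases downstream of the start. The 10 genes with the core had a median log2FC of -0.056, with 4 higher and 6 lower after silencing and values from -0.85 (CHAC1) to 0.49 (JDP2), and 2 of them had an unadjusted p under 0.05. The 23 tested members whose window was read and held no core had a median of -0.038, 8 of them higher and 15 lower, and 5 with an unadjusted p under 0.05. The genes with these sites thus lay on both sides of 0.

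Of the 42 members, 40 reached an RPKM of 1 in 2 or more libraries, whichever their group, and were tested. None of the 40 passed the test (FDR under 0.05 and |log2FC| over 1, limma), where 8 of 13885 genes did (0.0576%). At an unadjusted p under 0.05 there were 8 members (20.0%), 4 higher and 4 lower, against 21.7% of all genes tested (10.1% higher and 11.5% lower). The share of members is close to that of all genes, so the count is no result about the group. In 9 members both si-circZFR libraries lay above both NC libraries (22.5%, against 28.1% of all genes), and in 8 both lay below (20.0%, against 28.1%). With 2 libraries against 2, a two-sided exact permutation test of 1 gene cannot go below p = 0.333. The median log2FC of the members was -0.062, against 0.0063 for all genes tested, and the median size of the difference without its sign was 0.19, against 0.27. For scale, the NC libraries of a member differed from each other by a median of 0.143 on the log2 scale and the si-circZFR libraries by 0.203, against 0.251 and 0.160 over all genes.

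The 8 members were split evenly by direction. TRIB3, DDIT4, CEBPB and CBS had higher values after silencing, and SHMT2, ASNS, CHAC1 and SESN2 lower ones. TRIB3 was the 1 member with a |log2FC| over 1, and its adjusted p (FDR = 0.0760, limma) was the smallest of the group, followed by that of SHMT2 (FDR = 0.0837, limma). Both are described with their roles below, where fold values are ratios of mean scaled RPKM and log2FC is on the scale of log2(scaled RPKM + 1), which understates differences of low genes.

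**Figure D1:**
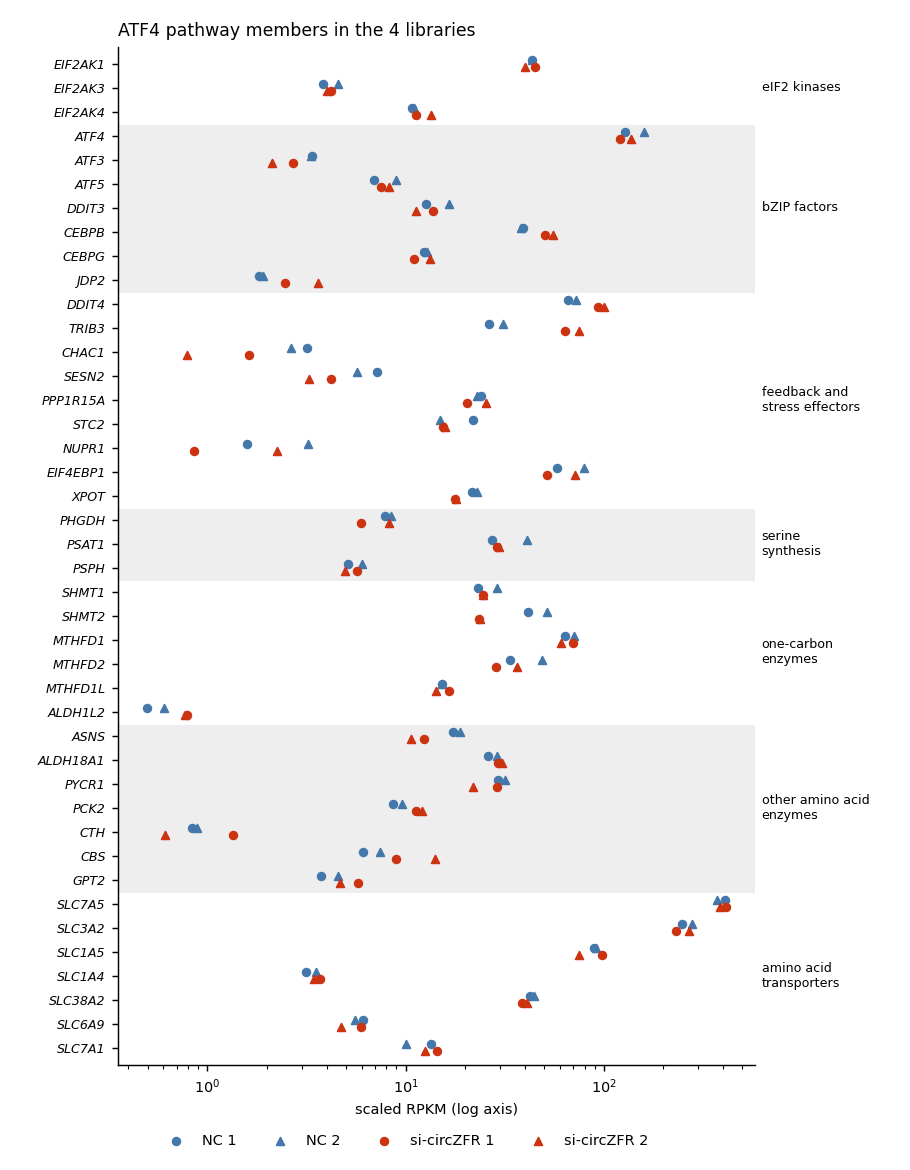
Scaled RPKM of the 42 members (log axis) in each library, grouped by role; circles and triangles are replicates 1 and 2, blue NC and red si-circZFR. SLC7A5 is highest in each library and ALDH1L2 and CTH lie near or below 1, and the blue and red points stand apart most clearly for TRIB3, SHMT2, ASNS, SESN2 and CHAC1.

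The levels of the members spanned the range of the genes tested. SLC7A5, the light chain of the LAT1 transporter for large neutral amino acids, was the highest member, at the 99.1 percentile of genes tested by its mean scaled RPKM. SLC3A2, its heavy chain, and ATF4 itself came next, at the 98.7 and 97.4 percentiles. At the low end NUPR1, CHAC1 and JDP2 lay at the 16.0, 16.9 and 21.0 percentiles, and over the 4 libraries NUPR1 and CHAC1 rested on 85 and 150 reads, so their values carry the largest counting error of the members tested. Of the members, 10 also have listed pseudogene copies, 25 in all, none above 14.1% of the lowest value of its parent. How reads that match both were counted is not given in the sources used here.

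The eIF2 kinases among the members showed no difference beyond the spread between libraries. EIF2AK4, which encodes GCN2, the sensor of uncharged tRNA, was at 10.8 and 11.1 scaled RPKM in NC and 11.3 and 13.5 in si-circZFR (log2FC 0.16, SE 0.16). EIF2AK3, which encodes the ER sensor PERK, was at 3.83 and 4.55 against 4.19 and 4.02. EIF2AK1, which encodes the heme-regulated kinase HRI, was at 43.5 and 43.4 against 44.8 and 39.8. HRI mRNA was thus the most abundant of these 3 kinases, 9.53 to 11.3 times the level of PERK mRNA within a library. EIF2AK2 was listed with the eIF2 and eIF2B machinery and is not part of this ranking. The groups of EIF2AK3 and EIF2AK1 overlapped, and the EIF2AK4 groups were apart by no more than 11.1 against 11.3.

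ATF4 mRNA overlapped between the groups, at 128 and 160 scaled RPKM in NC and 121 and 138 in si-circZFR (144 ± 23.2 against 129 ± 12.3, SD, n = 2). Its log2FC was -0.15 (SE 0.21). These are mRNA levels, and ATF4 protein was not measured here. DDIT3, which encodes CHOP, the factor that links prolonged stress to cell death, was at 12.7 and 16.6 in NC and 13.7 and 11.3 in si-circZFR. Its groups overlapped as well. ATF5, another factor translated under stress, was at 6.93 and 8.96 against 7.52 and 8.26, and CEBPG, a C/EBP partner of ATF4, at 12.4 and 12.8 against 11.1 and 13.3, again with overlap.

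The remaining bZIP factors lay apart, in both directions. CEBPB, the C/EBP protein that pairs with ATF4 and CHOP, was at 39.0 and 38.2 scaled RPKM in NC and 50.4 and 55.8 in si-circZFR, 1.38 times as high (log2FC 0.45, SE 0.16, FDR = 0.191, limma). JDP2, a repressor of AP-1 sites, was at 1.82 and 1.90 against 2.47 and 3.62 (log2FC 0.49, SE 0.21, FDR = 0.250, limma). ATF3, an immediate stress-induced repressor, was at 3.36 and 3.33 against 2.70 and 2.12 (log2FC -0.35, SE 0.18, FDR = 0.312, limma). Both si-circZFR libraries were above both NC libraries for CEBPB and JDP2 and below them for ATF3. Without si-circZFR 2 the log2FC was 0.28 for JDP2 and -0.23 for ATF3, and that of ATF3 was -0.11 once length and GC content were corrected for. The distance between the si-circZFR libraries was larger than that between the NC libraries for all 3 genes.

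**Figure D2:**
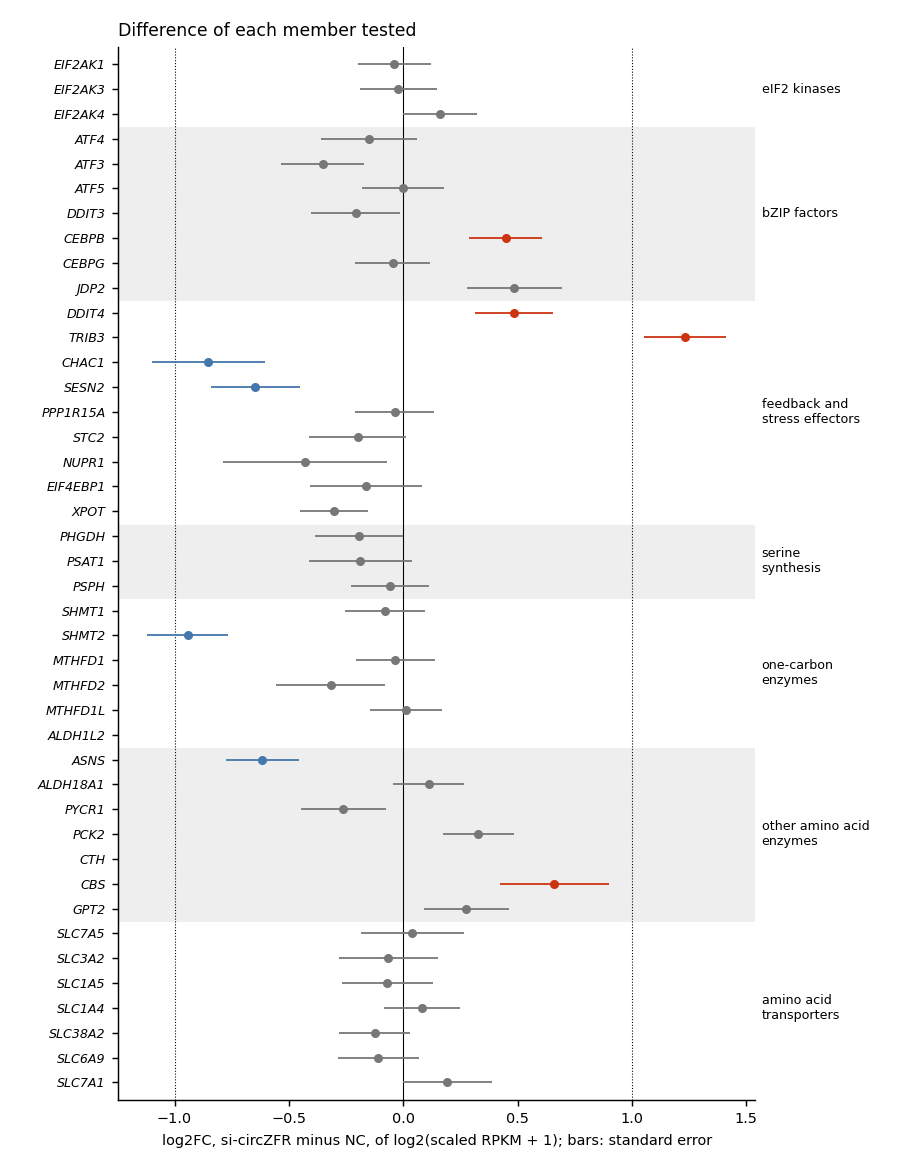
Estimated log2FC (si-circZFR minus NC) with its standard error for the 40 members tested, grouped by role; red and blue mark higher and lower members with an unadjusted p under 0.05, grey the others, and dotted lines a log2FC of -1 and 1. TRIB3 is the 1 member beyond a dotted line, the transporters and kinases sit close to 0, and ALDH1L2 and CTH, not tested, have no point.

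Of the 9 feedback and stress effectors, 4 had an unadjusted p under 0.05 (44.4%, against 21.7% of all genes tested), 2 higher and 2 lower. TRIB3 encodes a pseudokinase that is induced by ATF4 and CHOP and dampens ATF4 and AKT signalling. It was at 26.5 and 31.2 scaled RPKM in NC and at 63.5 and 74.6 in si-circZFR, from 761 and 885 reads to 1785 and 2239 reads. Both silenced libraries lay above both controls by more than the distance within either group. The mean was 2.40 times as high (28.8 ± 3.33 against 69.0 ± 7.83, SD, n = 2; log2FC 1.23, SE 0.18, unadjusted p = 0.000543 and FDR = 0.0760, limma). DDIT4, also called REDD1, a stress-induced inhibitor of mTORC1, was at 65.7 and 72.4 in NC and 93.4 and 100.2 in si-circZFR, 1.40 times as high (log2FC 0.48, SE 0.17, FDR = 0.191, limma). For DDIT4 too the groups did not overlap, and its log2FC was 0.73 under the length and GC correction, for which its gene length is uncertain.

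SESN2 and CHAC1 went the other way. SESN2 encodes sestrin 2, a leucine sensor that, like DDIT4, restrains mTORC1. It was at 7.15 and 5.70 scaled RPKM in NC and at 4.23 and 3.26 in si-circZFR, 1.72 times as high in NC (log2FC -0.65, SE 0.20, FDR = 0.155, limma). CHAC1 was at 3.17 and 2.66 in NC and at 1.62 and 0.785 in si-circZFR (log2FC -0.85, SE 0.25, FDR = 0.144, limma). For both genes the silenced libraries lay below the controls. The CHAC1 values rest on 58, 48, 29 and 15 reads, and the si-circZFR libraries differed from each other by 0.55 on the log2 scale.

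XPOT, the exportin that carries tRNA out of the nucleus, was at 21.5 and 22.8 scaled RPKM in NC and at 17.7 and 17.9 in si-circZFR, with groups apart (log2FC -0.30, SE 0.15, FDR = 0.297, limma; -0.14 with library size alone). The other effectors overlapped. PPP1R15A, which encodes GADD34, the phosphatase subunit that reverses eIF2 phosphorylation, was at 24.0 and 22.8 against 20.4 and 25.4. EIF4EBP1, which holds back cap-dependent translation, was at 58.3 and 79.7 against 51.9 and 71.2. STC2, a secreted glycoprotein, was at 22.0 and 14.9 against 15.4 and 15.9, where NC 1 stood above the other libraries. NUPR1, a small stress-induced chromatin protein, was at 1.59 and 3.22 against 0.861 and 2.24, so that replicate 2 was the higher library in both groups, as it was for EIF4EBP1.

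None of the 3 enzymes that make serine from the glycolytic intermediate 3-phosphoglycerate separated the groups. PHGDH, the first step, was at 7.91 and 8.44 scaled RPKM in NC and 5.97 and 8.23 in si-circZFR (log2FC -0.19, SE 0.19). PSAT1, the transaminase of the second step, was at 27.3 and 41.2 against 28.9 and 29.8, with NC 2 above the other libraries. PSPH, the phosphatase of the last step, was at 5.13 and 6.00 against 5.66 and 4.94. The log2FC of the 3 genes ran from -0.19 to -0.06 with standard errors of 0.17 to 0.23, and all 3 overlapped between the groups.

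In the one-carbon cycle, which takes serine apart into glycine and a folate-bound carbon, the mitochondrial SHMT2 stood apart from its cytosolic counterpart SHMT1. SHMT2 was at 41.4 and 51.9 scaled RPKM in NC and at 23.6 and 23.7 in si-circZFR, from 1144 and 1416 reads to 637 and 683 reads. The silenced libraries lay below the controls and close to each other. The mean was 1.97 times as high in NC (46.6 ± 7.42 against 23.6 ± 0.0643, SD, n = 2; log2FC -0.94, SE 0.18, unadjusted p = 0.00194 and FDR = 0.0837, limma). SHMT1 was at 23.2 and 29.0 in NC and at 24.5 in both silenced libraries, with overlap (log2FC -0.08, SE 0.17).

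No other one-carbon enzyme lay below the controls in both silenced libraries. MTHFD2, the mitochondrial dehydrogenase and cyclohydrolase, was at 33.7 and 48.8 scaled RPKM in NC and 28.6 and 36.6 in si-circZFR (log2FC -0.32, SE 0.24). MTHFD1L, which releases mitochondrial formate, was at 15.3 in both NC libraries and at 16.7 and 14.2 in si-circZFR. MTHFD1, the trifunctional enzyme of the cytosol, was at 63.8 and 70.4 against 70.0 and 61.1. These 3 overlapped between the groups. ALDH1L2, the mitochondrial enzyme that oxidises formyl-folate, was at 0.498 and 0.607 in NC and 0.787 and 0.769 in si-circZFR. Its silenced libraries lay above the controls, opposite to SHMT2, but it was too low to be tested.

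**Figure D3:**
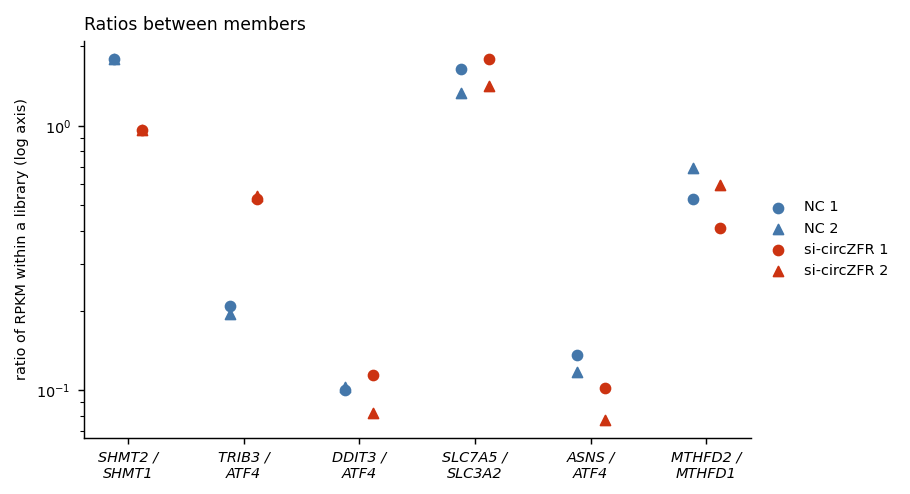
Ratios of deposited RPKM between members within each library (log axis), which do not depend on the scaling between libraries; circles and triangles are replicates 1 and 2, blue NC and red si-circZFR. SHMT2 over SHMT1 is 1.78 and 1.79 in NC and 0.963 and 0.965 in si-circZFR, TRIB3 over ATF4 is also apart, and DDIT3 over ATF4, SLC7A5 over SLC3A2 and MTHFD2 over MTHFD1 overlap.

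Ratios between members within a library do not depend on the scaling between libraries. They were chosen after the values were seen and are a description. SHMT2 over SHMT1 was 1.78 in NC 1 and 1.79 in NC 2, and 0.963 and 0.965 in si-circZFR. SHMT2 mRNA was thus the more abundant of the pair in the controls and about equal to SHMT1 after silencing. TRIB3 over ATF4 was 0.207 and 0.194 in NC and 0.527 and 0.541 in si-circZFR, whereas DDIT3 over ATF4 was 0.0998 and 0.103 against 0.114 and 0.0819. ASNS over ATF4 was 0.136 and 0.118 against 0.102 and 0.0773, and CHAC1 over DDIT3 was 0.249 and 0.160 against 0.118 and 0.0695. Set against these factors, TRIB3 was higher and ASNS and CHAC1 were lower in both silenced libraries than in either control. SESN2 over DDIT4, the pair that restrains mTORC1, was 0.109 and 0.0788 in NC and 0.0453 and 0.0326 in si-circZFR.

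Among the enzymes of asparagine, proline and alanine synthesis, transsulfuration and phosphoenolpyruvate (PEP), all 6 genes tested had groups that did not overlap, 4 above and 2 below, where 56.2% of all genes tested did not overlap either (28.1% above and 28.1% below). ASNS, asparagine synthetase, was at 17.4 and 18.9 scaled RPKM in NC and at 12.3 and 10.7 in si-circZFR, on 481 and 515 against 333 and 308 reads. The NC mean was 1.58 times as high (log2FC -0.62, SE 0.16, FDR = 0.126, limma), and the distance between the groups was larger than that within them. CBS, cystathionine beta-synthase, which joins homocysteine to serine, was at 6.12 and 7.43 in NC and at 8.99 and 14.0 in si-circZFR (log2FC 0.66, SE 0.24, FDR = 0.195, limma). Its silenced libraries differed from each other by 0.59 on the log2 scale, and without si-circZFR 2 the log2FC was 0.37. CTH, the next enzyme of transsulfuration, was at 0.837 and 0.888 against 1.35 and 0.611 and was not tested.

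PCK2, the mitochondrial PEP carboxykinase, was at 8.65 and 9.59 scaled RPKM in NC and 11.2 and 12.1 in si-circZFR (log2FC 0.33, SE 0.16, FDR = 0.283, limma). GPT2, the mitochondrial alanine transaminase, was at 3.73 and 4.56 against 5.78 and 4.68. Both were above the controls, PCK2 with a log2FC of 0.19 under the length and GC correction and GPT2 by less than the distance between its own libraries. The proline enzymes split. ALDH18A1, which opens proline synthesis, was at 26.2 and 29.1 against 29.3 and 30.5, and PYCR1, the reductase that closes it, was at 29.3 and 31.6 against 28.8 and 22.0. For both of them the nearest NC and si-circZFR libraries lay closer to each other than the libraries within a group.

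The amino acid transporters lay close to 0, with log2FC from -0.12 to 0.19. SLC7A5 was at 407 and 371 scaled RPKM in NC and 415 and 384 in si-circZFR (log2FC 0.04, SE 0.23), and SLC3A2 at 248 and 278 against 232 and 271 (log2FC -0.07, SE 0.22). SLC7A5 over SLC3A2 was 1.64 and 1.34 in NC and 1.79 and 1.42 in si-circZFR, so the pair overlapped as a ratio too. SLC1A5, the glutamine carrier ASCT2, was at 89.7 and 90.9 against 98.1 and 75.3. SLC1A4, the serine and alanine carrier ASCT1, was at 3.13 and 3.53 against 3.70 and 3.46. SLC7A1, the carrier of arginine and other cationic amino acids, was at 13.5 and 10.1 against 14.5 and 12.5, and SLC6A9, the glycine carrier GLYT1, at 6.11 and 5.53 against 5.94 and 4.75. SLC38A2, the glutamine and alanine carrier SNAT2, was the 1 transporter whose groups did not overlap, at 42.4 and 44.4 against 38.7 and 40.8 (log2FC -0.12, SE 0.15).

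**Figure D4:**
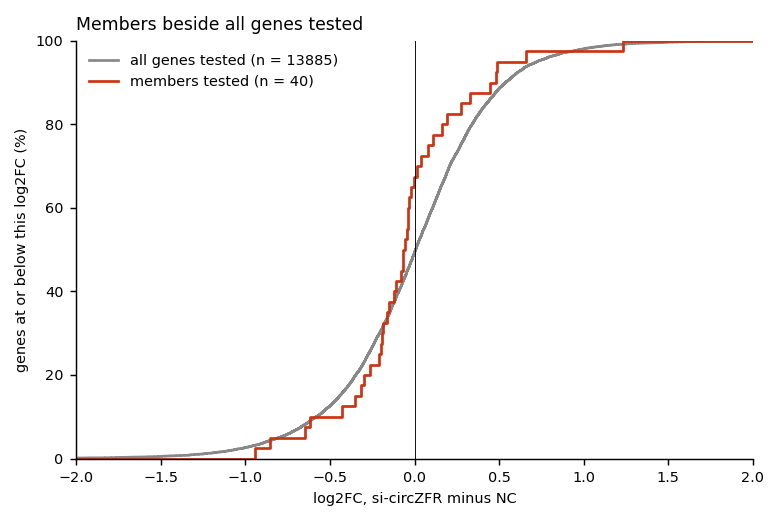
Cumulative share (%) of genes at or below each log2FC (si-circZFR minus NC) for the 40 members tested (red) and the 13885 genes tested (grey); the x axis stops at -2 and 2. The red curve is the steeper of the pair around 0, with a median of -0.062 against 0.0063, and ends at TRIB3 on the right and SHMT2 on the left.

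By role, the median log2FC was -0.021 for the kinases, -0.046 for the bZIP factors, -0.20 for the effectors, -0.19 for serine synthesis, -0.080 for the one-carbon enzymes, 0.19 for the asparagine to PEP enzymes and -0.066 for the transporters. In all, 13 members had a log2FC above 0 and 27 below it. That split depends on the scaling and on single libraries. With RPKM scaled by library size alone the median of all genes moved from 0.0063 to 0.15 and 14 members changed sign, the largest of them at 0.162 before, so that 7 of 7 transporters and 3 of 3 kinases then lay above 0. The members' median minus that of all genes was -0.069 as reported and -0.045 with library size alone, but it was -0.115 without NC 1 and turned to 0.011 without NC 2. By role, leaving out 1 library turned the median of serine synthesis (0.037 without NC 2), of the one-carbon enzymes (0.011 without NC 2, and -0.24 without NC 1), of the transporters (0.096 without si-circZFR 2), of the bZIP factors (0.015 without NC 2 and 0.059 without si-circZFR 1) and of the kinases (0.079 without NC 2 and 0.044 without si-circZFR 2). The median of the effectors ran from -0.34 without NC 1 to -0.029 without si-circZFR 1, and that of the asparagine to PEP enzymes from 0.098 without NC 1 to 0.29 without NC 2. None of the 8 members with a small unadjusted p changed sign. They were picked by that p and their groups did not overlap, so leaving out 1 library could not turn their sign.

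The calls of TRIB3 and SHMT2 turned on the setting. TRIB3 passed the test with genes filtered by CPM above 1 (FDR = 0.0449, limma, where 1.33% of genes passed and 1.49% had an FDR under 0.05), by limma-voom on reads recovered from the RPKM values (log2FC 1.26, FDR = 0.0282, 2.06% of genes passed) and without NC 1 (log2FC 1.12, FDR = 0.0492, limma, 5.16% of genes passed and 5.78% had an FDR under 0.05). SHMT2 passed without NC 1 (log2FC -1.10, FDR = 0.0462, limma). By limma-voom its adjusted p was 0.0419, at a log2FC of -0.97, where 2.38% of genes had an FDR under 0.05. Over the 12 settings the log2FC ran from 1.11 to 1.40 for TRIB3, from -1.10 to -0.77 for SHMT2 and from -0.71 to -0.45 for ASNS. The widest ranges were those of CHAC1, from -1.35 to -0.57, and CBS, from 0.37 to 0.95, and that of CEBPB reached down to 0.21 with the length and GC correction.

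**Figure D5:**
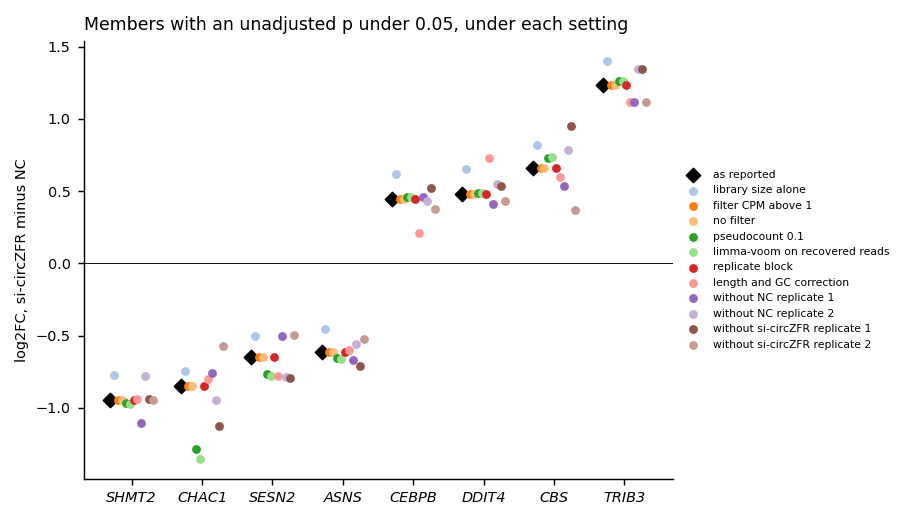
Log2FC (si-circZFR minus NC) of the 8 members with an unadjusted p under 0.05, as reported (black diamonds) and under each of the other 11 settings (coloured points). Each gene keeps its side of 0 in all 12 settings, with TRIB3 between 1.11 and 1.40 and CHAC1 spread from -1.35 to -0.57. With 1 library left out this side was fixed in advance, because the groups of these genes do not overlap.

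Other genes of the pathway came from lists drawn up by role and not by movement, but with earlier results of these data known. They gave 0 of 99 genes tested past the test (limma), 3 with the filter of CPM above 1 and 4 by limma-voom. At an unadjusted p under 0.05 there were 17 of the 99 (17.2%, against 21.7% of all genes tested). Of 20 other ATF4 and CHOP targets tested, 9 had a p under 0.05, 4 higher and 5 lower. ERO1L, the ER oxidase that CHOP induces, was at 10.7 and 8.89 scaled RPKM in NC and 22.6 and 24.7 in si-circZFR (log2FC 1.19, FDR = 0.0759, limma). LONP1, a mitochondrial protease, was at 22.7 and 22.8 against 43.2 and 51.1 (log2FC 1.01, FDR = 0.0812, limma), while the growth arrest gene GADD45B was at 12.6 and 16.2 against 5.96 and 5.88 (log2FC -1.15, FDR = 0.0782, limma). As among the members, values lay apart in both directions.

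None of the 17 genes of the eIF2 and eIF2B machinery and none of the 12 ATF4-responsive tRNA synthetases had an unadjusted p under 0.05. Over all genes tested this share was 21.7%. The median log2FC of the synthetases minus that of all genes was -0.18 as reported and -0.15 with library size alone, and their own median of -0.17 became -0.27 without NC 1 and -0.10 without NC 2. In glycine, folate and methionine metabolism 1 of 14 genes had a p under 0.05, with a higher value. Among asparagine, glutamine, proline and arginine enzymes 1 of 12 had a p under 0.05, glutamate dehydrogenase GLUD1 (log2FC -0.92, FDR = 0.125, limma). Of 10 other transporters it was 2, both lower, the lysosomal carrier SLC36A1 (log2FC -0.99, FDR = 0.0910, limma) and the leucine carrier SLC43A1 (log2FC -0.70, FDR = 0.115, limma). Of 14 ER chaperones, which belong to the ATF6 and XBP1 branches of the unfolded protein response, 10 lay above 0. The median log2FC of the 14 was 0.33 (0.15 without si-circZFR 2 and 0.455 without si-circZFR 1). An unadjusted p under 0.05 was found for 4 of them (28.6%, against 21.7% of all genes tested), 3 higher and 1 lower. In 8 both si-circZFR libraries lay above both NC libraries (57.1%, against 28.1% of all genes), and in 2 both lay below (14.3%, against 28.1%). CRELD2 was at 12.4 and 13.2 against 20.9 and 32.4 scaled RPKM (log2FC 0.97, FDR = 0.115, limma), and EDEM1 at 12.3 and 8.97 against 5.54 and 6.35 (log2FC -0.73, FDR = 0.133, limma).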

How the data were processed

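Ion Proton sequencing covered total RNA of 4 libraries (2 NC, 2 si-circZFR). The authors deposited 1 RPKM value per gene and library. Groups and replicate numbers came from the sample titles. The labels do not state separate cultures, so p-values measure only the spread between these libraries. The study's methods name hg38, the submitters' processing notes GRCh37, and the aligner and annotation are not given in the sources used here. The methods also name SVA and edgeR for the authors' own comparison. At FDR under 0.05 and |logFC| over 1, the study reports far more dysregulated genes in A549 than the 8 that passed here. By gene set enrichment it also reports a cellular response to starvation, which was not tested here. Because the deposited values are RPKM, limma took the place of a count test.

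RPKM values were scaled by unweighted trimmed means (30% of ratios and 5% of levels trimmed) and fitted as log2(scaled RPKM + 1) by limma with a prior variance that follows the level (3.81 prior degrees of freedom at the median), over the 13885 genes that reached RPKM 1 in 2 or more libraries. P-values were adjusted over all of them by Benjamini-Hochberg. A gene passed at FDR under 0.05 and |log2FC| over 1. Library totals of 11040050 to 12816868 reads were first estimated from the RPKM values. With them, whole reads were recovered for 24282 of 24289 genes above 0 (99.97%, tolerance 0.02). They came to 10811488 to 12599499 reads on genes per library. The shortest gene length that fitted was kept, so the recovered reads of a gene may be too few. These reads served for depth, the CPM filter and limma-voom. DDIT4 reads are not given, because its recovered gene length may be a fraction of the true one.

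All 42 members are named. The 6 with the smallest p in each direction are given with full statistics, and up to 3 genes with the smallest p are drawn from each other list, of which those with a p under 0.05 are given. A few of these genes and markers are left out of the text. Members and lists were chosen with earlier results of these data known. The scripts were tested on simulated data. Alternatives covered scaling, filter, pseudocount, limma-voom, the replicate number as a block, a length and GC correction (GC found for 86.6% of genes), and each library left out. R 4.3.3, limma 3.58.1, Python 3.11.15, numpy 2.4.6, pandas 2.3.3 and matplotlib 3.10.9 were used.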

Additional observations from a re-analysis of the deposited data

How the results depend on the processing

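The 8 genes that passed became 196 with the filter of CPM above 1, 0 with no filter (3676 at an unadjusted p under 0.05), 2 with a pseudocount of 0.1, 286 by limma-voom and 15 after the length and GC correction, and ranged from 0 to 717 with 1 library left out (717 without NC 1 and 0 without each of the others). With the replicate number as a block 63 passed. The same-numbered libraries share only a number (correlation of their deviations 0.0694, 2 pairs), and the block changed no call among the members. Members past the test were 0 as reported, 1 with the CPM filter, 1 by limma-voom and 0 to 2 with 1 library left out (2 without NC 1). In the other lists 0 became 3 with the CPM filter (ERO1L, GADD45B, LONP1), 4 by limma-voom and 0 to 4 with 1 library left out. ZFR kept its direction, but its adjusted p was 0.226 with no filter (log2FC -2.33) and 0.0506 with a pseudocount of 0.1 (log2FC -2.52), and its log2FC ranged from -2.47 to -2.19 with 1 library left out, with an adjusted p above 0.05 without NC 2, si-circZFR 1 or si-circZFR 2. With library size alone, members above the controls went from 9 to 17 of 40 and those below from 8 to 6, while all genes tested went from 28.1% to 39.6% above and from 28.1% to 18.2% below. The share of members with the promoter core went from 29.4% to 17.6% with the stricter core. Leaving out 1 library changed the sign of 1 to 11 members, all with a reported |log2FC| of at most 0.199. The causes were not tested. A fit without 1 library leaves a lone sample that is assumed to vary like the other group. Among the members tested, depth limits CHAC1 and NUPR1 most, and recovered reads cover counting error only.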
